A study of Mus musculus with 89 samples.

Results

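Ido1 encodes indoleamine dioxygenase, and was followed here across the cell types and the crypt-villus zones of the mouse jejunum. It is 1 gene of the 27538 in a table of cell clumps and of the 23379 in a table of single cells. The gene was chosen by its measured values in these same data, high UMI counts in goblet cells and in villus clumps that hold mucus genes. Its levels by cell type, zone and mucus class are therefore given as a description, with no test.

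The enzyme opens the ring of tryptophan in the first and rate-limiting step of the kynurenine pathway, and interferon gamma is its classical inducer. In the immune system it is known for depleting tryptophan and for producing kynurenines, some of which are ligands of the aryl hydrocarbon receptor. Goblet cells are the mucus-secreting cells of the intestinal epithelium. They are born in the crypts, which lie at the base of the tissue, and move up the villi to the tips, where cells are shed.

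All animals were C57BL/6 male mice on regular chow, with no genetic change and no treatment. Jejunal epithelium was released with EDTA and sorted into 384-well plates, and RNA was counted with MARS-seq, a 3′ end protocol that tags each captured molecule with a unique molecular identifier (UMI). The labels give an age of 3 months, except for 3 plates of single cells of mouse 2 that are labelled 4 months. Clumps, which are cells that stayed attached to their neighbours, came as pairs (4n DNA content) from mice 1 to 5 and as larger clumps (above 4n) from mice 1, 4 and 5. Clumps of mouse 6, sorted above 2n, are described apart. Single cells came from 4 mice that are numbered separately from those of the clumps. They were sorted as Epcam positive and CD45 negative or with other gates, which limits which cell types could appear.

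The Ido1 gene (ENSMUSG00000031551.12) lies on the minus strand of chromosome 8, from 24584136 to 24597009 of GRCm38, and spans 12874 bp. Ido2 (ENSMUSG00000031549.16), which encodes a related dioxygenase, lies 7802 bp further along at 24531892 to 24576333. Tdo2 (ENSMUSG00000028011.16), the tryptophan dioxygenase best known from liver, is on chromosome 3 at 81957090 to 81976202. Of its 2 annotated transcripts, the one described here has 10 exons, 1560 nucleotides and a coding length of 1221 nucleotides.

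The study also imaged this transcript with 54 fluorescent DNA probes of 20 bases each, whose values are not used here. All 54 matched that transcript as reverse complements and 0 matched a transcript of Ido2, the closest relative in position. Of these, 42 lay within the coding sequence, 10 in the 3′ UTR and 2 across a border of the coding sequence, and 6 spanned an exon junction. The 4 probes printed here show the start of the coding sequence, an exon junction, the end of the coding sequence and the 3′ end, which is the end that MARS-seq counts. They are written 5′ to 3′, and capitals mark bases that pair with coding bases.
Ido1 probe 1: TGAGTGCCATtgctgtctac
Ido1 probe 23: ACAAAGTCACGCATCCTCTT
Ido1 probe 45: acactaAGGCCAACTCAGAA
Ido1 probe 55: tttactgggtctcattgttg
Probe 1 pairs with exon 1 at 24596930 to 24596949, at the start of the coding sequence. Probe 23 pairs across exons 7 and 8, so its ends lie at 24585785 and 24586886 with an intron between them. Probe 45 pairs with exon 10 at 24584399 to 24584418 and covers the end of the coding sequence. Probe 55 pairs with the 3′ UTR in exon 10 at 24584157 to 24584176, ending 21 bases from the 3′ end of the transcript.

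Goblet-like cells held nearly all Ido1 transcripts of the single cells. Among 5199 cells that passed the filters, 213 (4.10%) fell into a cluster led by Zg16, Tff3, Fcgbp, Muc2, Clca1, Spink4 and Agr2, and all 10 goblet markers had UMIs in it. These 213 cells held 96.1% of the 1086 Ido1 UMIs. The transcript was counted in 140 of 213 goblet-like cells (65.7%, exact 95% interval 58.9 to 72.1%) and in 40 of the 4986 other cells (0.802%). Intervals cover counting error only. Summed over cells, Ido1 stood at 2102 UMIs for every 1000000 UMIs of the goblet-like cells (2102 CPM) and at 3.73 CPM in all others. Because MARS-seq counts a single tag per molecule, CPM is not scaled by gene length.

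**Figure D1:**
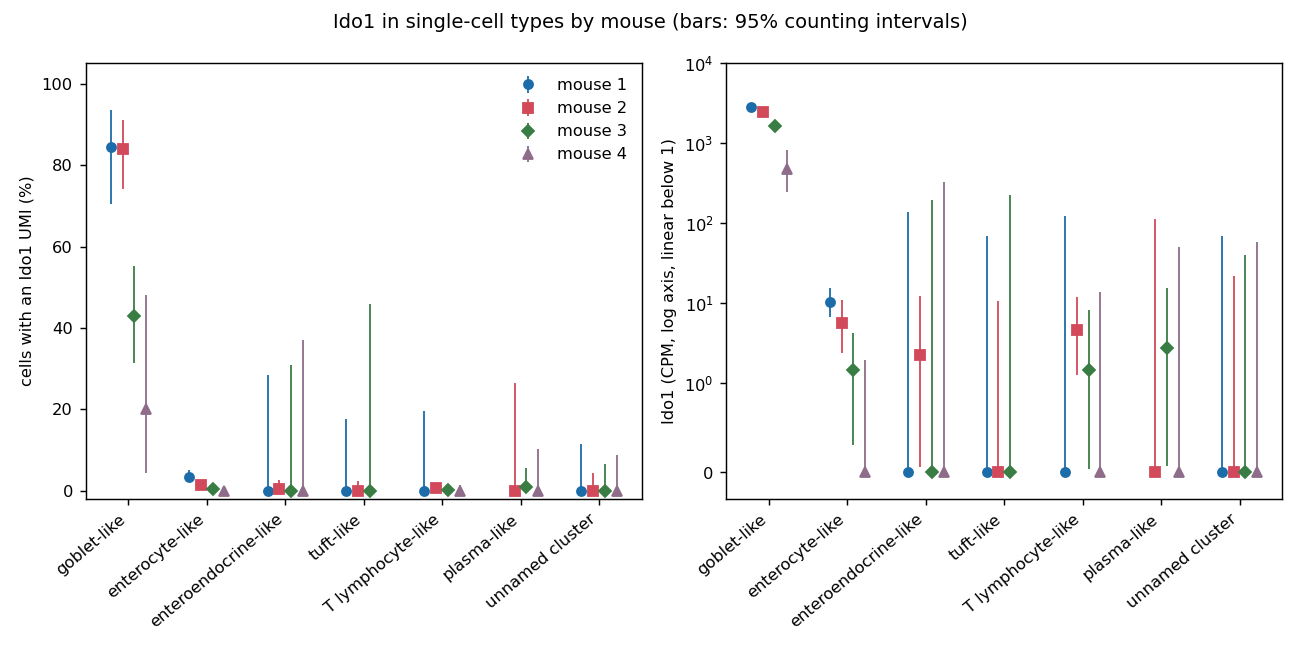
Left, share of cells with an Ido1 UMI (percent), and right, Ido1 level (CPM, log axis, linear below 1), for each cell type, with a point per mouse and a bar for the 95% counting interval. Goblet-like cells stood at 20.0 to 84.4% by mouse, and enterocyte-like cells reached 3.34%, while wide bars mark mice with few cells of a type.

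The share of goblet-like cells with a UMI was 84.4% in mouse 1 (38 of 45 cells), 84.0% in mouse 2 (68 of 81), 43.1% in mouse 3 (31 of 72) and 20.0% in mouse 4 (3 of 15). The corresponding levels were 2840, 2453, 1637 and 472 CPM. Mice 1 and 2 were close to each other, mouse 3 was lower and mouse 4 was lowest on both measures, and mouse 4 rests on 12 UMIs. Even its level was above that of every other cell type in any mouse. Scaled to the summed UMIs of the study's own goblet classification markers, Ido1 stood at 63.7, 43.3, 33.1 and 17.8 per 1000 in mice 1 to 4. This was the same order. Goblet marker UMIs, wherever named below, are those of that list, which differs from the 10 goblet markers that named the cluster.

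The sorting gates differed between these mice. In mouse 3, 14 of 23 goblet-like cells from plates labelled CD45Epcam had a UMI (60.9%, 2343 CPM), against 17 of 49 from plates labelled onlyEpcam (34.7%, 1250 CPM). In mouse 2, the Epcam plates gave 56 of 66 cells (84.8%, 2153 CPM). The 4-month plates gave 6 of 7, at a higher level (4909 CPM), and the 3-month plates with no gate label 6 of 7 (2909 CPM). In mouse 4, the plates labelled CD54Epcam gave 1 of 7 and the onlyEpcam plates 2 of 8. The part of the gates in the differences between mice was not tested.

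Markers of other cells were present in the goblet-like cluster at lower levels. The 10 goblet markers that named the cluster made up 202104 CPM (134068 to 236501 by mouse). The 13 enterocyte markers made up 5968 CPM, and the 9 Paneth markers 2265 CPM, with 478 to 3677 CPM by mouse. T lymphocyte markers summed to 121 CPM with Trdc at 0, and myeloid markers to 64.4 CPM, all from Lyz2. Enteroendocrine markers summed to 187 CPM, with Chga, Tph1 and Scg3 at 0. The part of other cells in the goblet-like level of Ido1 was not tested.

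Enterocyte-like cells, the absorptive cells, had 35 Ido1 UMIs in 33 of 2466 cells (1.34%, exact 95% interval 0.923 to 1.87%), or 4.57 CPM. By mouse these levels were 10.4, 5.61, 1.46 and 0 CPM, which is the order of the goblet-like level in the same mice. Of the 33 cells, 29 also held a UMI of a mucus gene, against 1009 of all 2466 (40.9%). Within mice these were 19 of 23 against 66.9% in mouse 1, 7 of 7 against 56.3% in mouse 2 and 3 of 3 against 33.0% in mouse 3. The cells with an Ido1 UMI were deeper, with a median of 3933 UMIs against 2858. Relative to the goblet-like level, the enterocyte-like cells had 0.217% of Ido1 and 0.199% of the 4 mucus genes. Within mice these ratios were 0.367, 0.228, 0.0890 and 0% for Ido1 beside 0.325, 0.254, 0.135 and 0.0625% for the mucus genes. Over all mice, Ido1 and the mucus genes stood at a like fraction of their goblet-like level, and less alike within mice 3 and 4. The source of these Ido1 UMIs was not tested, and no expression in enterocyte-like cells is read from them. Median depths were 2864.5 UMIs per enterocyte-like and 1991 per goblet-like cell. By landmark genes, 29 of the 33 were among 1784 cells of the villus tip, 2 among 380 of the mid-villus and 2 among 302 of the crypt. The emptiest wells of the plates held 1 Ido1 UMI of 2033 UMIs for cells and 0 of 8505 for clumps.

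Other types had few or no Ido1 UMIs. Enteroendocrine-like cells, the hormone-secreting cells, had a UMI in 1 of 247 (0.405%), T lymphocyte-like cells in 5 of 1737 (0.288%) and plasma-like cells in 1 of 143 (0.699%). It was found in 0 of 186 tuft-like cells and in 0 of 207 cells of a cluster left unnamed. By a floor of 3 counts this allows shares of up to 1.61% and 1.45%, with exact 95% limits of 1.96% and 1.77%. These limit the cells with a UMI at this depth, not the cells that express the gene. Below the goblet-like cells the order of these types cannot be read, since their shares rest on 0 to 5 cells. When each cell was thinned to 500 UMIs, 94 of 207 goblet-like cells kept an Ido1 UMI (45.4%, 6 shallower cells left out) and 4 of 2428 enterocyte-like cells (0.165%).

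Among goblet-like cells the counts were uneven. No UMI was seen in 73 cells, at least 5 in 75 cells, at least 10 in 30 and at least 20 in 10, with a median of 2 and a maximum of 53. The 21 highest cells held 47.8% of the UMIs. Ido1 was the 23rd most abundant nuclear gene of this cluster. Of the 275 nuclear genes with at least 100 UMIs in it, 5 had a larger part of their UMIs there. These were Fer1l6 (99.4%), 9530053A07Rik (97.1%), Fcgbp (96.7%), Clca1 (96.3%) and Zg16 (96.3%), and Muc2 followed Ido1 at 95.2%.

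Goblet-like cells placed towards the villus tip held more Ido1 than those placed towards the crypt. The position of a cell was its eta, the part of its goblet landmark UMIs that came from tip landmarks (61 tip and 309 crypt genes, Ido1 left out), in the 203 cells with at least 5 landmark UMIs. The study chose these landmarks from its own clumps, so the axis is not independent of these data. Below the median eta of 0.368, 44 of 102 cells had an Ido1 UMI (43.1%, exact 95% interval 33.4 to 53.3%). Above it, 92 of 101 did (91.1%, 83.8 to 95.8%).

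In cryptward cells the level was 1733, 1285, 887 and 0 CPM in mice 1 to 4, and in tipward cells it was 3424, 3296, 3564 and 1514 CPM. Every mouse was higher tipward, and the groups overlapped only through the tipward cells of mouse 4, which lay below the cryptward cells of mouse 1. Per 1000 goblet marker UMIs the values were 40.1, 23.4, 21.2 and 0 cryptward against 72.9, 55.9, 51.7 and 35.6 tipward, again higher in each mouse. The tipward shares of cells were 100, 95.7, 81.0 and 50%, beside cryptward shares of 66.7, 74.1, 27.5 and 0%. Median depths were close, at 2100 UMIs cryptward and 2014 tipward. Cut into 3 groups of like size, the cells had an Ido1 UMI in 21 of 69, 53 of 67 and 62 of 67 cells from crypt to tip, at 469, 2326 and 3655 CPM.

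**Figure D2:**
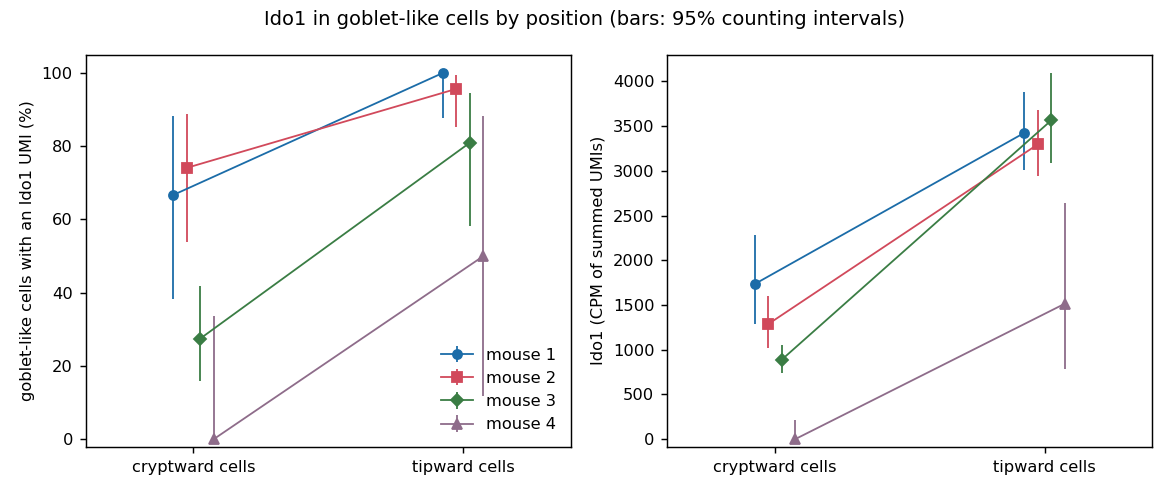
Left, share of goblet-like cells with an Ido1 UMI (percent), and right, Ido1 level (CPM of summed UMIs), in cryptward and tipward cells, with a line per mouse and bars for 95% counting intervals. All 4 mice were higher in tipward cells, and mouse 4 was lowest in both groups.

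In clumps, Ido1 was counted where mucus genes were, and more so towards the villus tip. A clump counted as having mucus genes with at least 5 UMIs of Muc2, Fcgbp, Zg16 and Clca1 together, and as lacking them with 0. Muc2 is the gel-forming mucin, Fcgbp and Zg16 are secreted proteins of the mucus and Clca1 is a secreted protease of it. Of 5883 clumps (3251 crypt, 1821 mid-villus and 811 villus tip), 1263 had mucus genes (21.5%), and these held 367 of the 389 Ido1 UMIs (94.3%). The 2006 clumps with 1 to 4 mucus UMIs held 10 Ido1 UMIs, and the 2614 with none held 12. In clumps, as in bulk samples, fewer cells of a type and less RNA per cell cannot be told apart.

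In crypt clumps with mucus genes the level was 0, 46.0, 7.83, 1.79 and 0 CPM in mice 1 to 5 (11.1 ± 19.8, SD, n = 5). In mid-villus clumps it was 341, 91.1, 130, 16.03 and 59.3 CPM (127 ± 127, n = 5), and in villus tip clumps 914, 1469, 414, 45.5 and 941 CPM (757 ± 545, n = 5). The order crypt, mid-villus, tip held in each of the 5 mice, while the zones overlapped between mice because mouse 4 was low in mid-villus and tip. The tip level was 2.68, 16.1, 3.19, 2.84 and 15.9 times the mid-villus level of the same mouse. The crypt mean rests on mouse 2 and was 2.40 CPM without it, and the mid-villus mean was 74.1 CPM without mouse 1. Sums over tip clumps hold 2 to 90 Ido1 UMIs per mouse, so the tip values of mouse 4 (2 UMIs) and mouse 5 (8 UMIs) are the least precise.

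**Figure D3:**
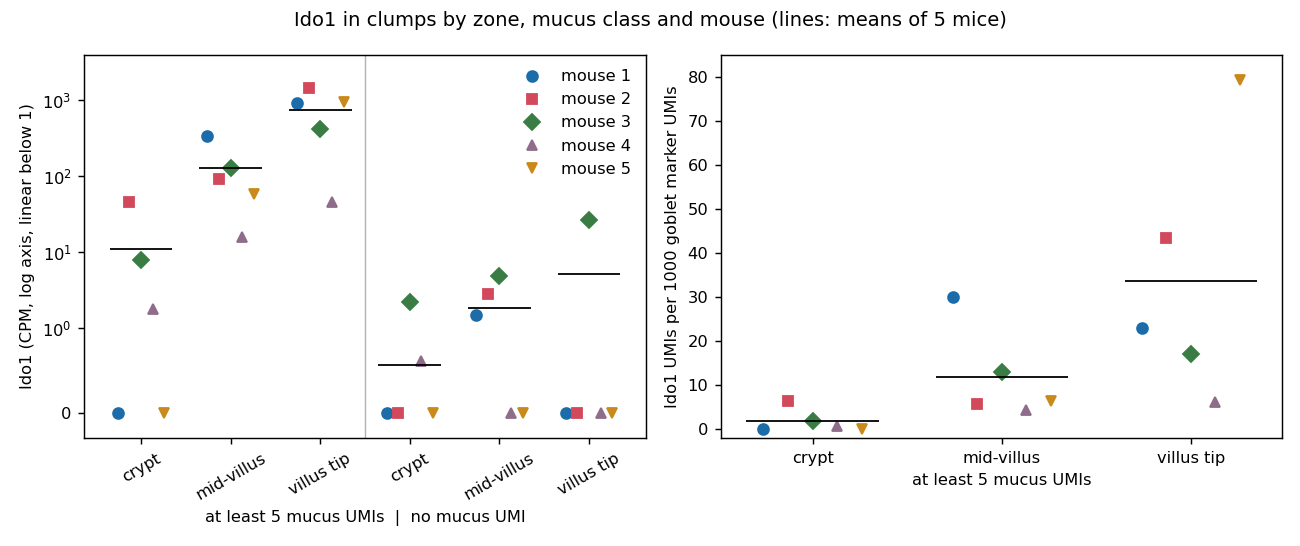
Left, Ido1 level (CPM, log axis, linear below 1) by zone in clumps with at least 5 mucus UMIs and with none, and right, Ido1 UMIs per 1000 goblet marker UMIs in the former, with a point per mouse and lines for the means of 5 mice. The tip clumps with mucus genes sat between 45.5 and 1469 CPM, and the clumps without them reached 26.3 CPM, in mouse 3.

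Over all mice, 14 of 883 crypt clumps with mucus genes had an Ido1 UMI (1.59%, exact 95% interval 0.869 to 2.65%). The mid-villus share was 67 of 295 (22.7%, 18.1 to 27.9%) and the tip share 34 of 85 (40%, 29.5 to 51.2%). Clumps without mucus genes had shares of 2 of 1142 (0.175%), 4 of 983 (0.407%) and 4 of 489 (0.818%). Their mean level was 0.569 ± 0.968 CPM in crypt and 1.84 ± 2.06 CPM in mid-villus (SD, n = 5). In the tip it was 26.3 CPM in mouse 3 and 0 in the other 4 mice.

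Depth differed between the zones. Median UMIs per clump with mucus genes were 3385 to 12998 by mouse in crypt, 1593 to 8173.5 in mid-villus and 968 to 3826 in the tip. The part of depth in the differences of Ido1 between zones was not tested. Mouse 4 gave 690 of the 883 crypt clumps, and without it the means were 13.5, 155 and 935 CPM from crypt to tip.

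The mucus genes that set the class differed along the same axis. Muc2 was 3.94 higher on the log2 scale in tip than in crypt clumps, Fcgbp 3.27, Zg16 4.42 and Clca1 3.75. A fixed minimum of mucus UMIs asks for a larger mucus share in shallower clumps, so these differences are in part set by the selection and are no result. Scaled to goblet marker UMIs, Ido1 stood at 0, 6.47, 1.87, 0.636 and 0 UMIs per 1000 in crypt clumps of mice 1 to 5. The mid-villus values were 29.99, 5.74, 13.1, 4.27 and 6.31, and the tip values 22.9, 43.4, 17.1, 6.12 and 79.2. Their means were 1.80 ± 2.72, 11.9 ± 10.7 and 33.7 ± 28.8 (SD, n = 5). On this scale the tip exceeded the crypt in all 5 mice, but mouse 1 was higher in mid-villus than in tip and mouse 2 was higher in crypt than in mid-villus.

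Within each zone the share was highest in the clumps with the most mucus UMIs, with no steady rise below them. With 30 or more mucus UMIs, 10 of 280 crypt clumps had an Ido1 UMI (3.57%), 55 of 110 mid-villus clumps (50%) and 29 of 41 tip clumps (70.7%). With 10 to 29, the counts were 3 of 233, 4 of 62 and 2 of 16. Just inside the limit, at 5 to 9 mucus UMIs, they were 1 of 370, 8 of 123 and 3 of 28. Just outside it, at 1 to 4 mucus UMIs, they were 4 of 1226, 5 of 543 and 1 of 237.

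Mouse 6, sorted above 2n and left out of the values above, had 272 clumps. Its tip clumps with mucus genes had an Ido1 UMI in 14 of 28 (50%, 784 CPM), its mid-villus clumps in 2 of 12 (24.5 CPM) and its crypt clumps in 2 of 22 (4.58 CPM). These levels fell within the range of the other mice in crypt, mid-villus and tip.

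Among clumps without mucus genes that held markers of other secretory or immune cells, Ido1 was counted in 1 of 14 clumps with tuft markers, 0 of 8 with enteroendocrine markers, 0 of 20 with T lymphocyte markers and 0 of 101 with Paneth markers. The tuft share was 7.14% at 10.6 CPM, from a single UMI. By the floor of 3 counts the zeros allow shares of up to 37.5, 15.0 and 2.97%, and by the exact 95% interval 36.9, 16.8 and 3.59%, so Ido1 is limited closely only in the Paneth clumps.

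Among villus clumps with mucus genes, pairs of mice 1, 2, 3 and 5 had 508, 392, 175 and 207 CPM (320 ± 157, SD, n = 4), and larger clumps of mice 1, 4 and 5 had 659, 21.6 and 240 CPM (307 ± 324, n = 3). Mice 1 and 5 gave both kinds, and in each of them the larger clumps were higher (659 against 508 and 240 against 207 CPM), whereas the mean was 13.3 CPM higher in pairs. Mouse 4, the lowest value, entered only among the larger clumps. An exact permutation test over these mice could give no p below 0.0571, so nothing about clump size is read from them. Pairs of mouse 4 were left out because they had fewer than 5 clumps.

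Within goblet-like cells, the genes most like Ido1 included Sprr2 genes, S100a6 and the mucus genes Muc2 and Zg16. Among the 10 genes named next, the 3 Sprr2a genes stood first also by Spearman's correlation and after thinning, while the order of the others turned. Likeness was Pearson's correlation of log-scaled counts over the 213 cells after removal of the mouse means, among 575 genes seen in at least 20% of these cells. Cells share plates, depth and mouse, so these values are a description. The 10 highest were Sprr2a2 (0.706), Sprr2a1 (0.692), Sprr2a3 (0.653), Sprr2b (0.565), S100a6 (0.557), Muc2 (0.496), Lgals3 (0.476), Zg16 (0.460), Krt20 (0.434) and Krt19 (0.427). Over all 575 genes the median was 0.01, with 5 and 95% points of −0.29 and 0.279. The 3 Sprr2a genes are near-identical copies between which reads may be split, so they are uncertain as separate genes. The Sprr2 genes encode small proline-rich proteins, S100a6 a calcium-binding protein, Lgals3 galectin-3, and Krt20 and Krt19 intermediate filament keratins.

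The correlation with Sprr2a2 was 0.652, 0.608, 0.787 and 0.872 in mice 1 to 4, and that with S100a6 was 0.571, 0.520, 0.579 and 0.601. Thinned to 500 UMIs per cell, the values were lower, at 0.479 for Sprr2a2, 0.396 for Muc2 and 0.370 for S100a6, and by Spearman's correlation they were 0.683, 0.563 and 0.511, so Muc2 passed S100a6 on both. The 5 lowest were Guca2a (−0.473), which encodes guanylin, mt-Nd2 (−0.361), Rps12 (−0.353), Rps24 (−0.346) and mt-Rnr1 (−0.346). Other goblet genes spread from Tff3 (0.42) and Clca1 (0.42) through Fcgbp (0.29) to Agr2 (−0.17) and Spink4 (−0.25). None of the 15 genes named as highest or lowest was among the landmarks that set eta.

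**Figure D4:**
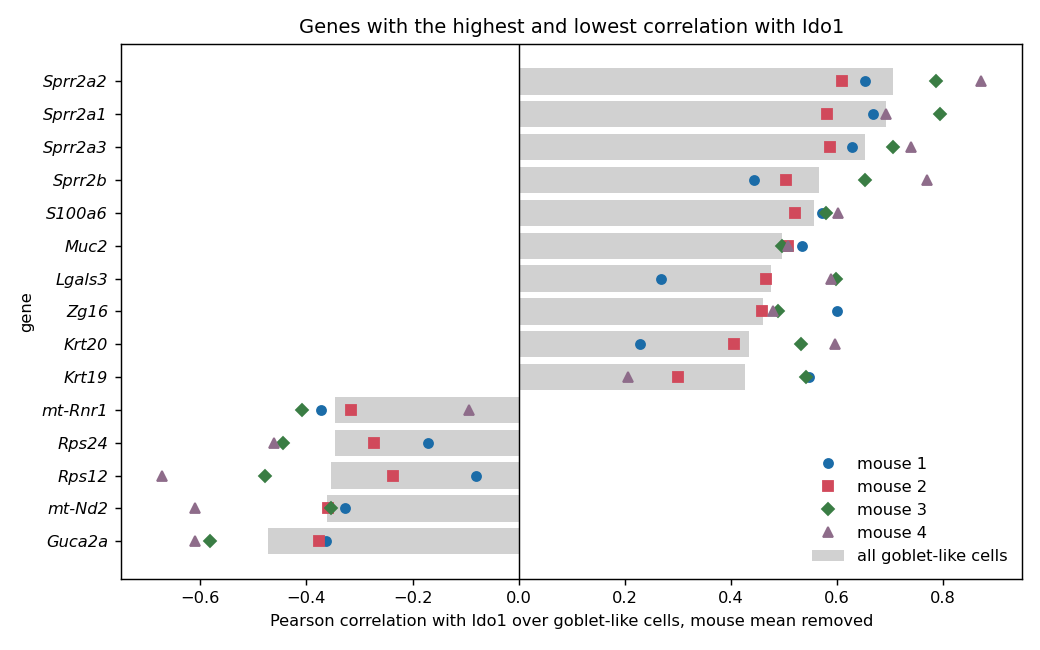
Pearson's correlation with Ido1 (horizontal axis) for the 10 highest and 5 lowest of 575 genes, with a bar over all goblet-like cells after removal of mouse means and a point per mouse. Sprr2a2 led at 0.706 and Guca2a was lowest at −0.473, and each gene kept its sign in all 4 mice.

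The nearest genes changed with the unit compared. Over 26 sums of a cell type in a mouse, which mainly separate goblet from other types, the highest of 12905 genes were Fer1l6 (0.995), Lrrc26 (0.985), Bcas1 (0.973), Clca1 (0.968), Capn9 (0.967), Rep15 (0.965), Creb3l4 (0.965), 9530053A07Rik (0.964), Atoh1 (0.964) and Muc2 (0.964). Atoh1 is the transcription factor of the secretory lineage. Over 30 sums of clumps by zone, mucus class and mouse, the highest of 12288 genes were AW112010 (0.858), Pla2g10 (0.854), Fer1l6 (0.847), S100a6 (0.841), Clca1 (0.837), Muc2 (0.828), Tff3 (0.826), Klk1 (0.820), Mcf2l (0.811) and Zg16 (0.808). The sums of a mouse share animal and depth. The lists over cell-type sums and over clump sums shared 3 of their 10 genes, Clca1, Fer1l6 and Muc2. The list over goblet-like cells shared 1 of 10, Muc2, with the former and 3 of 10, Muc2, S100a6 and Zg16, with the latter.

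S100a6 was present in other cell types too, with 57.1% of its UMIs in goblet-like cells, and Sprr2a1 had 19.9% there and Krt20 6.87%. In mid-villus clumps without mucus genes S100a6 stood at 8.96, 1.41, 4.86, 7.83 and 8.33 CPM in mice 1 to 5, and with them at 1023, 615, 477, 102 and 296 CPM. The groups did not overlap, and the difference was 6.47 on the log2 scale (SE 0.69, edgeR quasi-likelihood test, adjusted p = 3.78e-05). Only 7 of 1895 genes tested passed in this comparison (0.369%), all 7 higher with mucus genes. The others were 9530053A07Rik (+9.49), Tff3 (+7.32), Spink4 (+5.97), Agr2 (+5.95), Krt18 (+2.54) and Lgals2 (+2.31). Ido1 was too low to enter that fit, and the 4 mucus genes that set the classes were fitted but not counted. Sprr2a2 did not pass there (−0.21, adjusted p = 0.9998), with 2652 CPM with and 3007 CPM without mucus genes.

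The other genes of the pathway were taken from 68 genes listed by role, beside Ido1 and the mucus genes. In the first step, Tdo2 had a single UMI, in an enteroendocrine-like cell (1.99 CPM), and Ido2 and Afmid, which encodes the formamidase that follows, were not analysed in cells. In the later steps, goblet-like cells had UMIs of 2 of the 8 genes in the table and enterocyte-like cells of 6, at summed levels of 16.1 and 15.8 CPM. Goblet-like cells held fewer UMIs in all, so a 0 in them does not show absence. Their 2 genes were Got2 (12.1 CPM), a mitochondrial aminotransferase, and Ccbl1 (4.03 CPM), a kynurenine aminotransferase. Kmo, the hydroxylase of kynurenine, was listed at 0 in goblet-like cells, at 77.3 CPM in the unnamed cluster and at 8.74 CPM in T lymphocyte-like cells. Kynu (66.6 CPM) and Haao (10.7 CPM) were also highest in that unnamed cluster, whose Cd74 stood at 13253 CPM.

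Of the genes that supply or use tryptophan, Wars, the tryptophanyl-tRNA synthetase and a known interferon gamma target, stood at 310 CPM in goblet-like cells (208 to 459 by mouse) and at 4.96 to 39.8 CPM in the other types. Slc6a19, the neutral amino acid transporter of the brush border, was lower in goblet-like (30.2 CPM) than in enterocyte-like cells (272 CPM). Slc16a10, an aromatic amino acid transporter, stood at 2.01 against 56.5 CPM and Maoa, a monoamine oxidase, at 20.1 against 177 CPM. Tph1, which starts serotonin synthesis, stood at 1123 CPM in enteroendocrine-like cells and at 0 in goblet-like cells. Cell types were clusters of these same cells, so these values carry no test.

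For the sensing and the inducing pathway, Ahr, the aryl hydrocarbon receptor, was listed at 0 in goblet-like cells, where a low level could be missed. It stood at 3.79 CPM in enterocyte-like and at 21.8 CPM in T lymphocyte-like cells. Ifng, the gene of interferon gamma, stood at 24.0 CPM in T lymphocyte-like cells and 0 in goblet-like cells. Its receptor genes were counted in goblet-like cells, Ifngr1 at 38.3 CPM and Ifngr2 at 78.5 CPM. The kinase gene Jak1 stood at 50.3 CPM and the transcription factor Irf1 at 119 CPM there. In enterocyte-like cells the same genes stood at 32.1, 123, 38.1 and 80.7 CPM. In T lymphocyte-like cells they stood at 87.9, 18.6, 181 and 118 CPM. Of the 21 interferon targets in the table, 5 were highest in goblet-like cells, 7 in T lymphocyte-like cells and 9 in the unnamed cluster. Among the 5, Irgm1 was a near tie with tuft-like cells (34.2 against 33.2 CPM). So were Irgm2 (22.1 against 20.8 CPM) and Iigp1 (12.1 against 11.5 CPM) with T lymphocyte-like cells, and Tgtp1 rested on 1 UMI. Gbp2, a guanylate-binding GTPase, stood at 129 CPM in goblet-like cells, 0.914 in enterocyte-like and 44.8 in T lymphocyte-like cells. Cxcl9 and Cxcl10, chemokines for T cells, stood at 28.2 and 32.2 CPM in goblet-like, 0.65 and 1.44 CPM in enterocyte-like and 85.3 and 50.6 CPM in unnamed cells. The goblet-like values rest on 14 and 16 UMIs in 1.88% and 1.41% of the cells. Cd74, the invariant chain of MHC class II, went the other way, at 76.5 CPM in goblet-like and 727 CPM in enterocyte-like cells. B2m, the light chain of MHC class I, differed little between goblet-like (1224 CPM) and enterocyte-like cells (922 CPM).

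**Figure D5:**
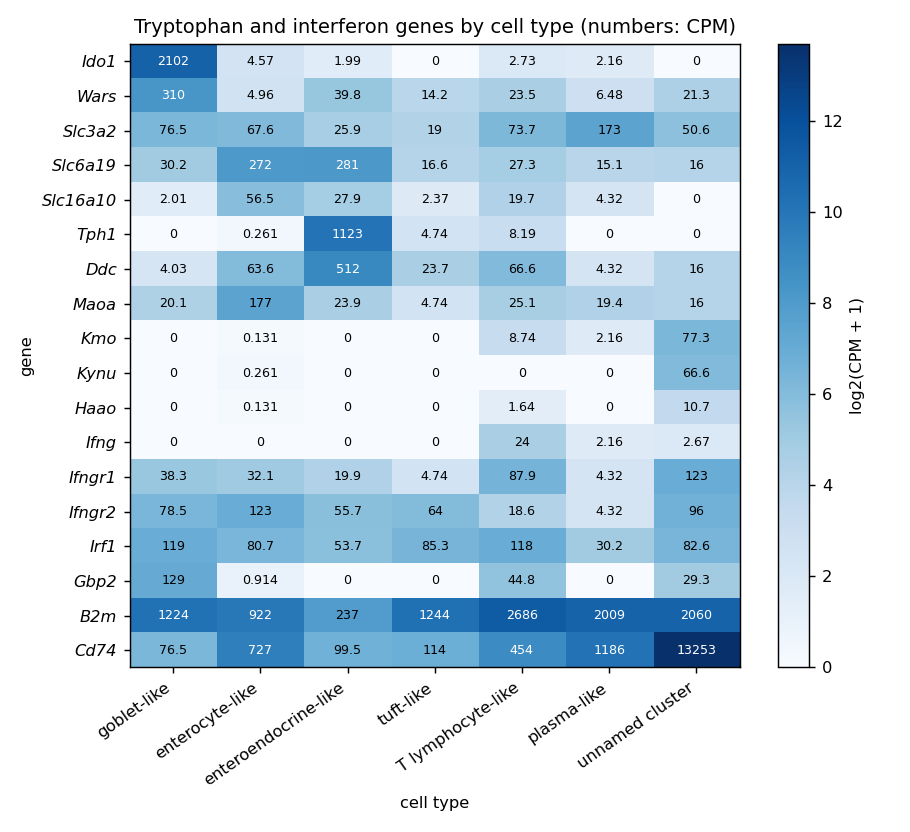
Heat map of Ido1 and of genes of tryptophan use and interferon response (rows) by cell type (columns), with color for log2(CPM + 1) and the CPM printed in each cell. Ido1 reached 2102 CPM in goblet-like cells, Tph1 1123 CPM in enteroendocrine-like cells and Cd74 13253 CPM in the unnamed cluster.

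Along the axis, 10 of the 68 listed genes passed the filter on low counts in clumps with mucus genes, and 6 of these 10 were higher in tip than in crypt clumps with 0 lower. In all, 58.9% of the 1333 genes tested were called there, 23.5% higher and 35.4% lower (edgeR quasi-likelihood test, adjusted p under 0.05). The median log2 difference of the 10 was 1.20, beside −0.16 for all genes. Slc6a19 rose from 9.3, 11.5, 39.1, 8.0 and 22.8 CPM in crypt to 356, 163, 525, 501 and 0 CPM in tip, so mouse 5 went against the other mice (log2 difference 4.60, SE 0.52, adjusted p = 2.21e-06). B2m rose in every mouse, from 921, 402, 1411, 679 and 866 CPM to 1371, 979, 4834, 5098 and 1412 CPM (1.82, SE 0.52, adjusted p = 0.00426).

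Slc16a10 (1.86), Ifngr2 (1.26), Irf1 (1.14) and Cd74 (1.67) also passed, with adjusted p of 0.00379, 0.00882, 0.0191 and 0.0373. DESeq2, in which the median of all genes was −0.89 and the calls split into 186 higher and 658 lower, did not call these 4, although their direction was kept. With DESeq2's size factors in edgeR, the median was −0.05, the calls split into 346 higher and 456 lower, and these 4 were called. Cd74 also missed the threshold without mouse 1, 2 or 5 and in pairs, and Irf1 without mouse 1 or 2. Irf1 and Slc16a10 were not tested without mouse 3 or 4, in pairs or with at least 10 mucus UMIs, where they did not pass the filter on low counts. With no filter on low counts these 4 and B2m were not called. Maoa (−0.69), Psmb8 (0.57), Lgals9 (−0.42) and Nfe2l2 (−0.09) did not pass. For comparison, the fitted difference of Ido1, which chose it, was 7.50 (SE 1.02), with 2 crypt sums at 0.

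Mid-villus against crypt, which shares the crypt sums, gave 5 of 10 higher and 0 lower, where 50.6% of 1333 genes were called, 21.1% higher and 29.5% lower. The 5 were Slc6a19 (3.86, adjusted p = 8.44e-06), Slc16a10 (2.87, adjusted p = 1.47e-05), Maoa (1.26, adjusted p = 0.00156), Ifngr2 (1.13, adjusted p = 0.0113) and B2m (1.53, adjusted p = 0.0146). Ifngr2 and B2m missed the threshold without mouse 1, and DESeq2 did not call Ifngr2. With no filter on low counts Maoa, Ifngr2 and B2m were not called. Slc16a10 was again not tested in the settings named for tip against crypt. Irf1 (0.42) and Cd74 (1.48, adjusted p = 0.0668) did not pass. The fitted difference of Ido1 was 4.68 (SE 1.02).

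Mid-villus clumps with against those without mucus genes gave 0 of 16 listed genes tested by edgeR, with an adjusted p of 0.9998 for each, where 0.369% of 1895 genes were called. Over all genes 25 had an unadjusted p under 0.05 there, and DESeq2 called 8. B2m differed by −0.23, Slc6a19 by −0.30 and Maoa by 0.06 on the log2 scale. In goblet-like cells, tipward against cryptward, 3 listed genes were tested and 1 was higher at an adjusted p under 0.25, where 42.5% of 320 genes were called, 18.8% higher and 23.8% lower. B2m stood at 1456, 737, 1067 and 343 CPM cryptward and at 2131, 806, 2014 and 1641 CPM tipward, higher in 4 of 4 mice (0.79, SE 0.46, adjusted p = 0.2499). That call was lost in 6 alternatives, which were leaving out mouse 2, 3 or 4, leaving out the 4-month plates, the outer groups of 3 by eta, and no filter on low counts. Without mouse 2 or 3, no gene passed at all in this comparison. Wars (0.27, adjusted p = 0.692) and Lgals9 (−0.11, adjusted p = 0.846) did not pass.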

How the data were processed

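Clumps and single cells of mouse jejunum were counted by MARS-seq on 45 and 44 plates. The authors ran bcl2fastq 2.15.0.4, aligned to GRCm38 and deposited whole-number UMI counts per gene and well (17162 and 16850 wells), before background subtraction and with no normalization. Plates hold 4 empty wells that the files do not name, so background was not subtracted. Well barcodes are reused between plates (340 of 384 on each of the 44 single-cell plates), so plate and barcode together named a well.

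Clumps entered with more than 500 UMIs, 200 or more genes and a mitochondrial share up to 30%, less the 2% with the lowest landmark share. A zone was the landmark list that correlated best. Cells were limited to a mitochondrial share up to 40%, 150 to 1500 genes and 200 to 7000 UMIs, and clustered with scanpy 1.11.5 (2000 genes, 25 components, 20 neighbors, Leiden resolution 0.1). No doublet caller was run.

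UMIs were summed per mouse over at least 5 cells or clumps and tested with edgeR 4.0.16 (quasi-likelihood, TMM, filterByExpr, Benjamini-Hochberg over all genes) at 0.05 for clumps and 0.25 for cells. DESeq2 1.42.0 was an alternative. Sums with the same mouse number within a table come from the same animal, and their deviations from group means correlated at 0.102 to 0.557 over zones (15 pairs), 0.326 to 0.497 over mucus classes and 0.268 to 0.353 over goblet-like groups. The main tests had no mouse term. Steps across genes were tested on simulated counts. Whether the 4-month plates of mouse 2 come from the same animal is not given in the sources used here.

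Ido1, its gene lists and the tests were chosen with earlier results of these data known. Named genes were Ido1, listed pathway genes that were called or most abundant in their list, and the 10 highest and 5 lowest correlations over goblet-like cells, with the 10 highest over sums on log2(CPM + 10) among genes over 20 CPM. The goblet genes beside these, the genes with most of their UMIs in goblet-like cells and the 7 called in mid-villus clumps were named after their values were seen. Gene positions come from GENCODE M21 and probe sequences from the study's supplement. Some listed genes are not reported here.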

Additional observations from a re-analysis of the deposited data

Results flagged for a closer look

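Of 43 groups of 4 or 5 mice examined for a sample far from the others, 9 had such a mouse. Some groups hold the same clumps on more than 1 scale, and some were at 0 in most mice, where any count stands out. The nominal rate of 1 in 20 therefore does not apply, and no excess is read. Crypt clumps with mucus genes of mouse 2 had 46.0 CPM of Ido1 against 0 to 7.83 in the others, and 6.47 UMIs per 1000 goblet marker UMIs against 0 to 1.87. They were 14 clumps with 4 Ido1 UMIs.

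Over all mice, clumps without mucus genes held 2 Ido1 UMIs in crypt, 5 in mid-villus and 5 in the tip. On these few counts, those of mouse 3 were flagged in all 3 zones. In the tip they had 26.3 CPM and 4.0% of clumps with an Ido1 UMI, with 0 in the other mice. In mid-villus 1.23% of them had a UMI (0 to 0.342% in the others), and in crypt 0.840% (0 to 0.205%) at 2.24 CPM (0 to 0.611).

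Tipward goblet-like cells of mouse 4 had 1514 CPM of Ido1 against 3296 to 3564 in the others, from 6 cells. Ifngr2 in mid-villus clumps with mucus genes of mouse 5 stood at 59.3 CPM against 248 to 290. Villus tip clumps with mucus genes of mouse 6, which entered no comparison, had 784 CPM of Ido1 in 28 clumps.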

How the results depend on the processing

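The rise of Ido1 from crypt to mid-villus to tip in clumps with mucus genes kept its order of means under each alternative run. The means were 5.34, 34.1 and 224 CPM with at least 1 mucus UMI, 16.1, 164 and 850 with at least 10, and 20.0, 130 and 870 with zones by landmark share of all UMIs, an alternative chosen after seeing the data. Leaving out a mouse gave 2.40 to 13.9, 74.1 to 155 and 579 to 935 CPM. The mean goblet-like share of 57.9% ranged from 49.0 to 70.5% without a mouse and was 41.3% thinned. Of the 10 genes most like Ido1, 7 were shared with the thinned and 9 with the Spearman ranking.

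The difference between pairs and larger clumps reversed to −4.02 per 1000 goblet marker UMIs and ranged from −129.5 to 126.9 CPM without a mouse, negative without mouse 2 (−10.5) and mouse 4 (−129.5). The cause was not tested.

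Tip against crypt called 1512 genes with no filter, 1786 with at least 1 mucus UMI, 505 in pairs, and 385 to 1160 without a mouse (385 without mouse 3). Mid-villus against crypt called 1794, 1380, 423 and 402 to 959 (402 without mouse 3), and mid-villus with against without mucus genes 35 with no filter and 5 to 11 without a mouse (11 without mouse 4). The goblet-like comparison called 278 with no filter, 130 with DESeq2 and 0 to 161 without a mouse, with 0 by edgeR without mouse 2 or 3, where 29 and 30 genes had an unadjusted p under 0.05. The number of genes tested or of sums changed with these settings. With mouse as a replicate block, counts were 889, 779, 9 and 173 in the same order, and no listed gene lost its call. Over all alternatives, 237 values of called genes of the lists kept their direction and their call, 39 kept the direction alone and 0 reversed. This tally includes the mucus genes, whose differences in clumps are in part set by the selection, so it overstates how steady the other listed genes were. At the depth of the sums, 0 Ido1 UMIs allow up to 6.99 CPM in crypt clumps with mucus genes of mouse 1 and 22.8 CPM in those of mouse 5 (3 counts per sum), and the tip value of mouse 4 rests on 2 UMIs.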
